A study of Mus musculus with 6 samples.

Results

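The Wnt ligands, their receptors and co-receptors, the secreted Wnt inhibitors, the R-spondins with their Lgr receptors, and the Tcf/Lef nuclear factors with Axin2 were examined in cells sorted from mouse hind-limb muscle. Members were chosen by a rule on gene symbols, with earlier results of these data known. Of the 24062 genes in the normalised count table, 53 matched. A second deposited table, of CPM (counts scaled to a common library size), held 21 of these genes among its 4939. The 53 genes comprised 19 Wnt ligands, 12 Frizzled receptors and Lrp co-receptors, 10 secreted inhibitors, 7 R-spondins and Lgr receptors, and 5 nuclear factors and Axin2, all annotated as protein coding.

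The study set the cells marked by a Twist2 lineage label against those marked by a Pax7 lineage label. All mice were adult C57BL/6 animals with the R26-tdTO+ reporter, in which a red fluorescent protein is switched on by Cre, and all received 3 tamoxifen treatments, given on alternate days, 10 days before harvest. Mice of genotype Tw2-CreERT2/+;R26-tdTO+ gave fluorescent cells (Tw2pos, 2 samples) and non-fluorescent cells (Tw2neg, 2 samples). Mice of genotype Pax7-CreERT2/+;R26-tdTO+ gave 1 sample of each kind (Pax7pos and Pax7neg). Cre made from the Twist2 or Pax7 gene decides which cells are fluorescent, and descendants stay so; each negative fraction holds all other cells of the digest, including any that escaped recombination. The labels do not say that the paired samples came from separate animals, and p-values here gauge only how far these samples spread, which can be technical.

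Wnt proteins are secreted, lipid-modified signals that bind a Frizzled receptor together with Lrp5 or Lrp6, which leads to stabilised beta-catenin and transcription through Tcf/Lef factors; some Wnts act through beta-catenin-independent routes instead. Sfrp proteins, Frzb and Wif1 bind Wnts outside the cell, Dkk1, Dkk2 and Dkk4 block the Lrp co-receptors, and R-spondins acting through Lgr receptors raise the amount of Frizzled and Lrp at the surface. In skeletal muscle, Wnt signals are known to act on satellite cells, the Pax7-expressing muscle stem cells, and on connective-tissue cells of the muscle interstitium.

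The Twist2 libraries held 10902318 to 13205751 recovered reads, and Pax7pos held 6016469 over the genes of the CPM table. Twist2, the driver of the first label, stood at 99.4 and 222 normalised counts in the Tw2pos libraries and 22.0 and 23.2 in the Tw2neg libraries, with 2.67 as its log2 fold change (SE 0.45, adjusted p = 0.00706). Pax7 itself read 0.402 CPM in Pax7neg and 303 CPM in Pax7pos, with 12.2 and 7.21 CPM in Tw2pos and 45.7 and 14.8 CPM in Tw2neg. Summed satellite cell markers were 8097 and 8145 normalised counts in Tw2pos and 5409 and 2692 in Tw2neg, with 1 of 7 markers higher, 2 lower and none at 0. Relative to Tw2neg, 5 of 6 fibroblast, 5 of 5 tendon, 4 of 5 myofibre and 1 of 6 pericyte markers were higher in Tw2pos and passed the test, while 7 of 7 T cell, 5 of 5 B cell, 4 of 4 macrophage, 4 of 4 neutrophil, 5 of 6 endothelial and 4 of 5 Schwann cell markers were lower. Summed fibroblast markers reached 916559 and 1013553 normalised counts in Tw2pos and 209922 and 110954 in Tw2neg. The Tw2neg replicates also differed from each other, with summed endothelial markers of 30407 and 10899.8 normalised counts in replicates 1 and 2. In bulk samples such as these, fewer cells of a type and less RNA per cell cannot be told apart.

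The first comparison asked how the Wnt genes of Twist2-lineage cells differed from those of the remaining muscle cells. The secreted inhibitors Dkk2, Wif1 and Sfrp2, the Dkk-family gene Dkk3 and the ligand Wnt5a rose in Tw2pos by log2 fold changes of 2.58 to 2.89. By contrast, on the log2 scale Tcf7 fell by 5.76 and Lef1 fell by 5.95. The test was limma on log2(normalised count + 1) restricted to genes averaging 10 or more, with Benjamini-Hochberg adjustment over all of them and a threshold of 0.05; fold changes on this scale understate those of low genes. Of the 53 members, 41 reached that mean, and 12 did not and were not tested. Among the 41, 19 rose, 2 fell and 20 did not pass, beside 38.6% of all 14155 genes called (18.7% higher and 20.0% lower). The median log2 fold change was 1.07 over the 41 members and -0.04 over all genes tested. Both Tw2pos libraries lay above both Tw2neg libraries for 29 members and below for 5, and the groups overlapped for 7; over all genes tested the corresponding shares were 37.1% and 39.2%.

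Counts of members called depended on the libraries used: without Tw2pos replicate 2, 12 members were called higher, and without Tw2pos replicate 1, 15 were. Without Tw2neg replicate 2 the count was 17 higher and 5 lower, and without Tw2neg replicate 1 it was 27 higher and 3 lower. Tw2neg replicate 1 exceeded replicate 2 in 37 of the 41 members, against 49.6% of all genes tested; the 4 exceptions were Tcf7, Lef1, Axin2 and Rspo1. Tw2pos replicate 1 exceeded replicate 2 in 24 of the 41, against 48.3% of all genes. The plot of normalised counts by library shows this ordering gene by gene.

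**Figure D1:**
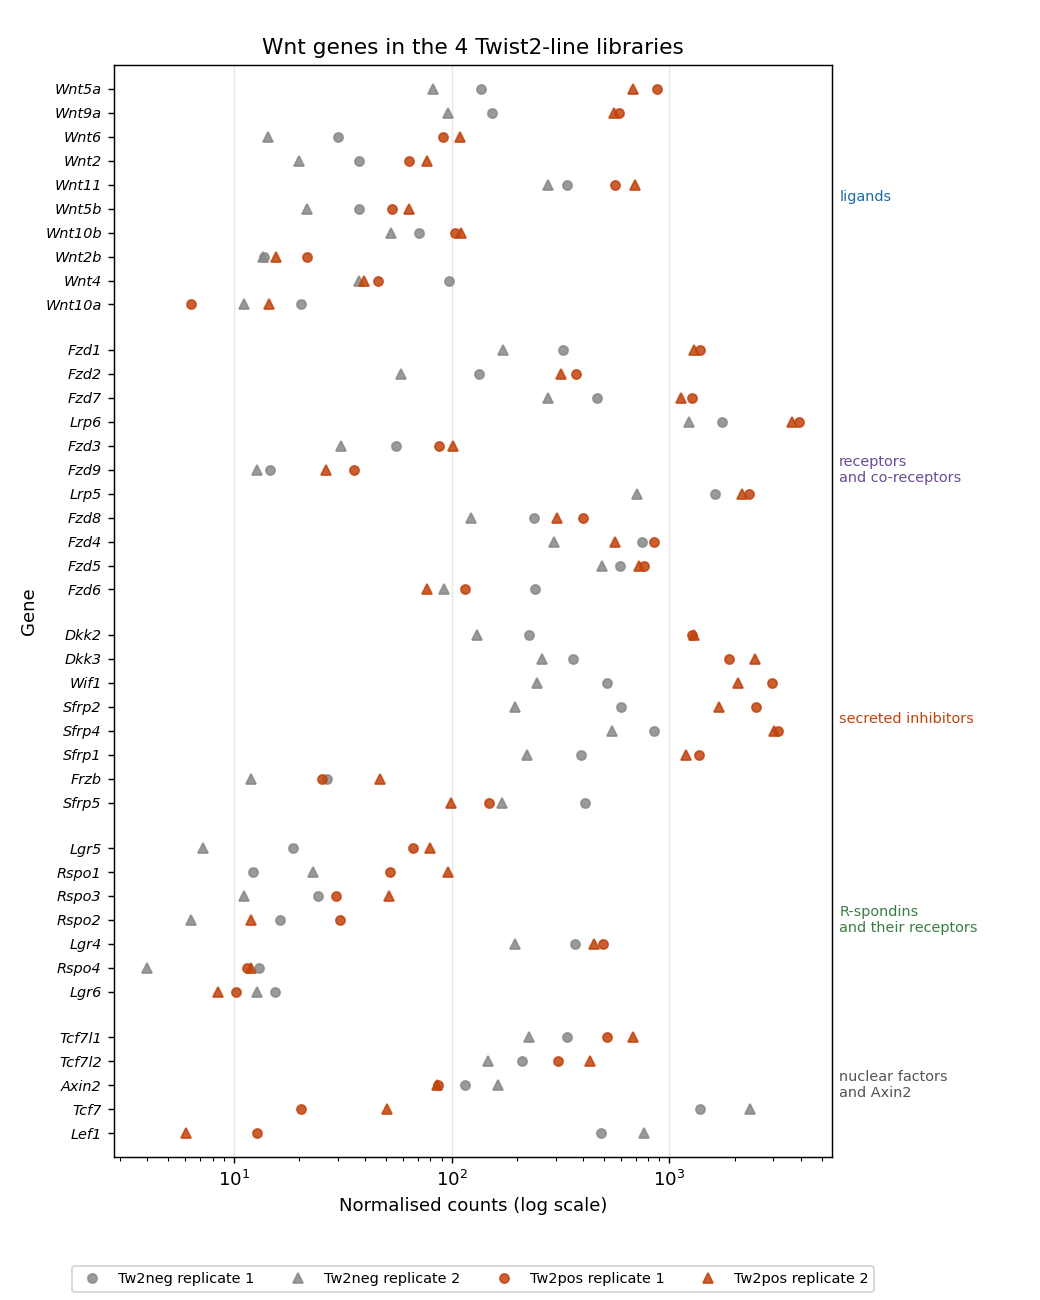
Normalised counts (x axis, log scale) of the 41 members with a mean of at least 10 (y axis, ordered by role) in each of the 4 Twist2 libraries, 1 point per library. Tw2pos points lie to the right of both Tw2neg points for 29 members and to the left for 5, the widest gaps to the left being those of Tcf7 and Lef1.

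Promoter windows of 5 members that rose in Tw2pos are shown because they include 3 inhibitors with large changes and the 2 risen genes, Fzd7 and Wnt11, whose window upstream of the gene body carries the core motif of Tcf/Lef factors. They come from RefSeq (GRCm38.p6), which matched 36 of the 53 members, and run up to 250 bases upstream of the RefSeq start without reaching the annotated gene body. Letters run 5′ to 3′ on the plus strand, the strand of all 5 genes, and capitals mark a match to CTTTGAT or CTTTGTT (Tcf/Lef core) or to CANNTG (E-box, the general motif of the basic helix-loop-helix family that includes Twist2), on either strand.
Dkk2 (chr3:132085042-132085291): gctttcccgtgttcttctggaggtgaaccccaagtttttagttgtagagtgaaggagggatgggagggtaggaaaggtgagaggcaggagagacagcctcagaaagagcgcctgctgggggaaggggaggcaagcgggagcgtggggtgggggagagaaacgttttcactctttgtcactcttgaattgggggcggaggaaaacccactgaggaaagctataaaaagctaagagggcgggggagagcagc
Sfrp2 (chr3:83766071-83766320): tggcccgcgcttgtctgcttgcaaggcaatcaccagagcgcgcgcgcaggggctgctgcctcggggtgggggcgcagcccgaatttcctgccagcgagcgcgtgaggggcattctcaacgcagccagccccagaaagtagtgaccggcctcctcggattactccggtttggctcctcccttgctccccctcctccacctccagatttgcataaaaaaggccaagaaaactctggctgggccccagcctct
Wif1 (chr10:121033754-121033959): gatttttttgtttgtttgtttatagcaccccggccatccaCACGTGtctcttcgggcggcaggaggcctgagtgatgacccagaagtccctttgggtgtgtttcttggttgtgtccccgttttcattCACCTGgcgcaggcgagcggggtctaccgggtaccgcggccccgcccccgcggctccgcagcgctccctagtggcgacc
Fzd7 (chr1:59481897-59482146): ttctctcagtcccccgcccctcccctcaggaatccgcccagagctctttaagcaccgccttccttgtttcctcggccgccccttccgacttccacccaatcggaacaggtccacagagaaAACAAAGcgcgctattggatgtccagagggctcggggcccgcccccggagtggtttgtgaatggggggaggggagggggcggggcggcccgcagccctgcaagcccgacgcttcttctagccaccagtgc
Wnt11 (chr7:98834862-98835111): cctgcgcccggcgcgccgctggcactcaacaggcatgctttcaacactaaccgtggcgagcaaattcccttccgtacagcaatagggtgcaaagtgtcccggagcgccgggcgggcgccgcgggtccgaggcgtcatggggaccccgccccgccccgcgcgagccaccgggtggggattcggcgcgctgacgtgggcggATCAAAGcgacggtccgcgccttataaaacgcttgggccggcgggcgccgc

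Wif1 held 2 CANNTG matches in its window and no Tcf/Lef match, whereas Fzd7 and Wnt11 held 1 Tcf/Lef match each and no CANNTG. Neither motif occurred in the Dkk2 and Sfrp2 windows shown, and no match overlapped another. Over full 250-base windows, CTTTGAT or CTTTGTT was found in 5 of the 36 members matched (13.9%; Dkk1, Fzd7, Tcf7l2, Wnt11 and Wnt5b) and in 9.21% of 27025 genes. These full windows include those of alternative starts inside a gene body, and the Tcf7l2 and Wnt5b matches lie in such windows. The Dkk1 match is not within the 81 bases of its window that precede the annotated gene body. Only the Fzd7 and Wnt11 matches lie upstream of the gene body. CANNTG was found in 22 of the 36 (61.1%) and in 69.3% of genes. A match describes these letters only, and no binding was measured.

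Of the 19 ligands, 10 were tested and 5 rose in Tw2pos, with none lower. Wnt5a, a prototype of beta-catenin-independent signalling (chr14:28504750-28527448), had 879.7 and 678 normalised counts in the Tw2pos libraries and 136 and 82.4 in the Tw2neg libraries, a log2 change of 2.86 (SE 0.30, adjusted p = 0.00189). Wnt9a (chr11:59306928-59333552) had 589 and 557 normalised counts in Tw2pos against 154 and 96.7 in Tw2neg, a log2 change of 2.22 (SE 0.27, adjusted p = 0.00286). For both ligands the groups were far apart relative to the spread within each. Wnt6 (chr1:74771892-74785322) was scarcer, at 91.8 and 109.8 normalised counts in Tw2pos against 30.1 and 14.4 in Tw2neg, a log2 change of 2.21 (SE 0.44, adjusted p = 0.0121); without Tw2pos replicate 2 its adjusted p was 0.0655.

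Wnt11, another ligand of beta-catenin-independent routes (chr7:98835112-98855195), stood at 337 and 277 normalised counts in Tw2neg and 562 and 698 in Tw2pos, a log2 change of 1.03 (SE 0.21, adjusted p = 0.0139). The groups did not overlap, but the call was lost without Tw2pos replicate 1 or 2 (adjusted p = 0.0535 and 0.152) and when libraries were scaled by their totals. Wnt2 (chr6:17988940-18030585) had 63.7 and 77.2 normalised counts in Tw2pos against 37.4 and 20.0 in Tw2neg, a log2 change of 1.33 (SE 0.42, adjusted p = 0.0490). Its call lay at the threshold and was lost in 8 of 12 alternatives, among them DESeq2, edgeR and the fits without Tw2pos replicate 1 (adjusted p = 0.153), Tw2pos replicate 2 (0.254) or Tw2neg replicate 2 (0.0890).

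Wnt10b, a ligand of the beta-catenin route, had 103 and 111 normalised counts in Tw2pos against 70.7 and 52.8 in Tw2neg and did not pass, at log2 0.80 (SE 0.30, adjusted p = 0.0784). Wnt5b had 53.5 and 63.9 normalised counts in Tw2pos against 37.4 and 21.6 in Tw2neg and did not pass either, at log2 1.01 (SE 0.40, adjusted p = 0.0929). Both lay above Tw2neg in each Tw2pos library, and both passed without Tw2neg replicate 1 and with quantile normalisation. Wnt4 had 45.9 and 39.8 normalised counts in Tw2pos against 97.6 and 37.6 in Tw2neg, with a difference of log2 -0.50 (SE 0.50, adjusted p = 0.467); without Tw2neg replicate 2 it passed as lower (log2 -1.17). Wnt2b had 21.7 and 15.7 normalised counts in Tw2pos against 13.8 and 13.6 in Tw2neg, and Wnt10a had 6.37 and 14.5 normalised counts in Tw2pos against 20.3 and 11.2 in Tw2neg. Neither passed, at log2 differences of 0.40 and -0.59.

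The other 9 ligands, Wnt1, Wnt3, Wnt3a, Wnt7a, Wnt7b, Wnt8a, Wnt8b, Wnt9b and Wnt16, were below a mean of 10 normalised counts. The highest single-library value among them was 14.6 normalised counts, for Wnt3 in Tw2neg replicate 1. Wnt3 had 18 and 10 reads in Tw2neg and 1 and 3 in Tw2pos. Wnt7a and Wnt8b, with the inhibitor Dkk4, had no read in any of the 4 libraries; at this depth a count of 0 allows up to 3 reads per library. The receptor Fzd10 and the inhibitor Dkk1, the remaining untested members, had at most 8 reads in any library.

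Of the 12 receptors and co-receptors, 11 were tested, 4 rose in Tw2pos and none fell. Fzd1 (chr5:4753839-4758035) had 1383 and 1292 normalised counts in the Tw2pos libraries and 324 and 172 in the Tw2neg libraries, a log2 change of 2.50 (SE 0.31, adjusted p = 0.00302). Fzd2 (chr11:102604396-102608058) had 372 and 319.6 normalised counts in Tw2pos against 134 and 58.4 in Tw2neg, a log2 change of 1.95 (SE 0.41, adjusted p = 0.0148). Fzd7, a receptor known for its role in satellite cells (chr1:59482424-59486955), had 1269.8 and 1133 normalised counts in Tw2pos against 463 and 277 in Tw2neg, a log2 change of 1.74 (SE 0.27, adjusted p = 0.00582). For these 3 Frizzled genes the lowest Tw2pos library was above the highest Tw2neg library, and the calls held in every alternative tried. Lrp6, the co-receptor (chr6:134446476-134566965), had 3951 and 3662 normalised counts in Tw2pos against 1752 and 1231 in Tw2neg, a log2 change of 1.37 (SE 0.23, adjusted p = 0.00720).

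Lrp5, the related co-receptor, had 2329 and 2160.1 normalised counts in Tw2pos against 1611 and 708 in Tw2neg, at a difference of log2 1.07 (SE 0.38, adjusted p = 0.0706). Its Tw2neg libraries differed more than its Tw2pos libraries, and it passed without Tw2neg replicate 1 (log2 1.66), under DESeq2 and with the replicate block. Fzd8 had 403 and 306 normalised counts in Tw2pos against 239 and 123 in Tw2neg, at log2 1.03 (SE 0.36, adjusted p = 0.0651), and passed in 5 of 14 alternatives, among them the fit without Tw2neg replicate 1. Fzd3 had 88.0 and 101 normalised counts in Tw2pos against 55.3 and 31.2 in Tw2neg, at log2 1.16 (SE 0.38, adjusted p = 0.0534), and passed in 4 of 13 alternatives, again including the fit without Tw2neg replicate 1. None of these 3 showed overlap between groups, although none passed the main test.

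Fzd9 had 35.7 and 26.5 normalised counts in Tw2pos against 14.6 and 12.8 in Tw2neg, at log2 1.11 (SE 0.42, adjusted p = 0.0817). Fzd5 had 761 and 728 normalised counts in Tw2pos against 591 and 489 in Tw2neg, at log2 0.47 (SE 0.19, adjusted p = 0.0925). Both Tw2pos libraries were above both Tw2neg libraries for each gene, without the difference reaching the threshold. Fzd9 passed with quantile normalisation (log2 1.58), and Fzd5 without Tw2neg replicate 1 (log2 0.61). Fzd4, a receptor abundant in endothelial cells, had 850.4 and 563 normalised counts in Tw2pos against 752 and 295 in Tw2neg, at log2 0.55 (SE 0.46, adjusted p = 0.373); without Tw2neg replicate 1 it passed as higher (log2 1.23). Fzd6 had 115 and 77.2 normalised counts in Tw2pos against 241 and 92.0 in Tw2neg, at log2 -0.66 (SE 0.49, adjusted p = 0.330); without Tw2neg replicate 2 it passed as lower (log2 -1.35). The groups overlapped for both, and in both genes Tw2neg replicate 1, was the higher of the pair; that library had the higher sum for every marker list except those of T and B cells, and their part in these values was not tested.

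**Figure D2:**
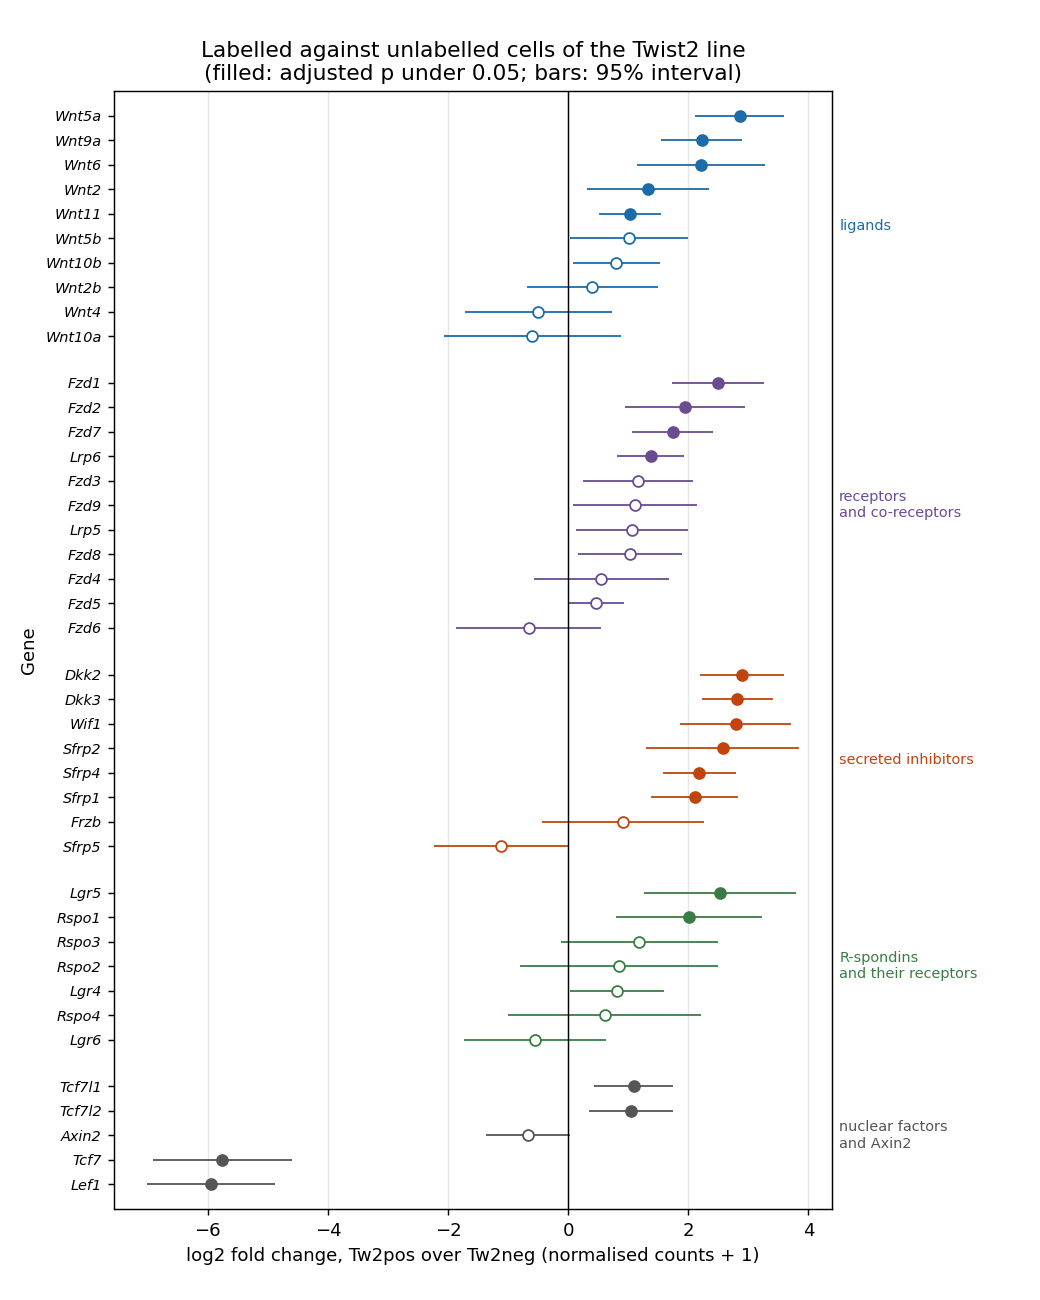
Log2 fold change of Tw2pos over Tw2neg (x axis, normalised counts + 1) for the 41 members tested (y axis, ordered by role), with bars for the 95% interval and filled points for an adjusted p under 0.05. The filled points to the right are 19, the largest being Dkk2 at 2.89, and the filled points to the left are Tcf7 at -5.76 and Lef1 at -5.95.

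Of the 10 secreted inhibitors, 8 were tested, 6 rose and none fell, with a median log2 fold change of 2.38. Dkk2 (chr3:132085292-132180304) had 1276 and 1294 normalised counts in the Tw2pos libraries and 226 and 131 in the Tw2neg libraries, a log2 change of 2.89 (SE 0.28, adjusted p = 0.00153). Dkk3 (chr7:112116017-112159057) encodes a divergent Dkk-family protein and is counted with the inhibitors throughout. It had 1883 and 2479 normalised counts in Tw2pos against 361 and 259.9 in Tw2neg, a log2 change of 2.81 (SE 0.24, adjusted p = 0.00101). Wif1 (chr10:121033960-121100650) had 2945 and 2064 normalised counts in Tw2pos against 515 and 245 in Tw2neg, a log2 change of 2.79 (SE 0.38, adjusted p = 0.00371). In all 3 the lowest Tw2pos library exceeded the highest Tw2neg library several-fold, and the calls held in every alternative.

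Sfrp2 had 2489.9 and 1685 normalised counts in Tw2pos against 601 and 195 in Tw2neg, at a log2 fold change of 2.58. Sfrp4 had 3153 and 3007 normalised counts in Tw2pos against 847 and 543 in Tw2neg, at log2 2.18. Sfrp1 had 1362 and 1190.4 normalised counts in Tw2pos against 393 and 221 in Tw2neg, at log2 2.11. These Sfrp genes, whose products carry a Frizzled-like Wnt-binding domain, also passed in every alternative. Sfrp5 did not pass; it had 149 and 98.9 normalised counts in Tw2pos against 411 and 171 in Tw2neg, at log2 -1.12 (SE 0.45, adjusted p = 0.0984). Both its Tw2pos libraries were below both Tw2neg libraries; it passed as lower under DESeq2, with the replicate block, with library totals and without Tw2neg replicate 2. Frzb had 25.5 and 47.0 normalised counts in Tw2pos against 26.8 and 11.99 in Tw2neg, with overlapping groups and a log2 difference of 0.91. The markers of fibroblasts (5 of 6 higher, sums above), tendon (5 of 5 higher) and myofibres (4 of 5 higher) moved in the same direction. The tendon sum was 388762 and 345239 normalised counts in Tw2pos and 71583 and 31102 in Tw2neg, and the myofibre sum was 429.6 and 710.4 against 203 and 119.9, with no marker at 0; their part in the result was not tested.

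Of the 7 R-spondins and Lgr receptors, all were tested, 2 rose and none fell. Lgr5, a Wnt-responsive receptor known as a stem-cell marker in other tissues (chr10:115450311-115587780), had 66.3 and 79.6 normalised counts in the Tw2pos libraries and 18.7 and 7.20 in the Tw2neg libraries, a log2 change of 2.53 (SE 0.52, adjusted p = 0.0135); without Tw2pos replicate 2 the adjusted p was 0.0579. Rspo1 (chr4:124986430-125009099) had 52.3 and 96.5 normalised counts in Tw2pos against 12.2 and 23.2 in Tw2neg, a log2 change of 2.01 (SE 0.49, adjusted p = 0.0239); the call was lost without Tw2pos replicate 2 (adjusted p = 0.158) or Tw2neg replicate 1 (0.0530). Both genes were low in every library, but their groups did not overlap. Lgr4 was at 497 and 452 normalised counts in Tw2pos against 370.0 and 196 in Tw2neg, and did not pass at log2 0.81 (SE 0.32, adjusted p = 0.0928); it passed with the replicate block (adjusted p = 0.0104) and without Tw2neg replicate 1 (log2 1.27). Rspo3 had 29.3 and 51.9 normalised counts in Tw2pos against 24.4 and 11.2 in Tw2neg, at log2 1.19 (SE 0.54, adjusted p = 0.129), and passed without Tw2neg replicate 1. Rspo2 had 30.6 and 12.1 normalised counts in Tw2pos against 16.3 and 6.40 in Tw2neg, at log2 0.85 (SE 0.68, adjusted p = 0.358). Rspo4 had 11.5 and 12.1 normalised counts in Tw2pos against 13.0 and 3.998 in Tw2neg, at log2 0.61 (SE 0.66, adjusted p = 0.496). Lgr6 had 10.2 and 8.44 normalised counts in Tw2pos against 15.5 and 12.8 in Tw2neg, at log2 -0.55 (SE 0.48, adjusted p = 0.399). None of these low members passed; the groups overlapped for Rspo2 and Rspo4, and both Tw2pos libraries were the lower for Lgr6.

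Among the nuclear factors the directions split: Tcf7l1 and Tcf7l2 rose, Tcf7 and Lef1 fell, and Axin2 did not pass. Tcf7, which encodes the T cell factor TCF1 (chr11:52252371-52283014), had 20.4 and 50.7 normalised counts in the Tw2pos libraries and 1379 and 2347 in the Tw2neg libraries, a log2 change of -5.76 (SE 0.47, adjusted p = 0.000862). Lef1, the lymphoid enhancer factor (chr3:131110471-131224356), had 12.7 and 6.03 normalised counts in Tw2pos against 484 and 761 in Tw2neg, a log2 change of -5.95 (SE 0.43, adjusted p = 0.000607). Tw2neg replicate 2 was the higher of its pair for both genes, opposite to most members. The summed markers of T cells were 3380.5 and 6626 normalised counts in Tw2neg replicates 1 and 2 and 81.6 and 176 in Tw2pos, over 7 of 8 listed genes; Trac was not analysed here. Those of B cells, 5 genes, were 4783 and 11344 in Tw2neg and 47.2 and 73.6 in Tw2pos. No marker of either list was at 0 in any library, both sums were, like Tcf7 and Lef1, higher in Tw2neg replicate 2 than in replicate 1, and their part in the result was not tested.

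Tcf7l2 (chr19:55741820-55933654) had 309 and 432 normalised counts in Tw2pos against 211 and 147 in Tw2neg, a log2 change of 1.04 (SE 0.28, adjusted p = 0.0320). The call was lost without Tw2pos replicate 1 (adjusted p = 0.0655), Tw2pos replicate 2 (0.255) or Tw2neg replicate 2 (0.0655), with no filter on the mean and with library totals. Tcf7l1, often a repressor of Wnt targets (chr6:72626378-72789254), had 516 and 679 normalised counts in Tw2pos against 339.9 and 226 in Tw2neg, a log2 change of 1.09 (SE 0.27, adjusted p = 0.0243); without Tw2pos replicate 1 or 2 the adjusted p was 0.0521 or 0.176, and with library totals 0.0735 (log2 0.64). Axin2, a feedback inhibitor and common readout of beta-catenin signalling (chr11:108920349-108950783), had 86.7 and 85.6 normalised counts in Tw2pos against 115 and 163 in Tw2neg, a log2 change of -0.67 (SE 0.29, adjusted p = 0.113). Both Tw2pos libraries were below both Tw2neg libraries for Axin2, which passed as lower without Tw2neg replicate 1 (log2 -0.91) and with library totals.

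**Figure D3:**
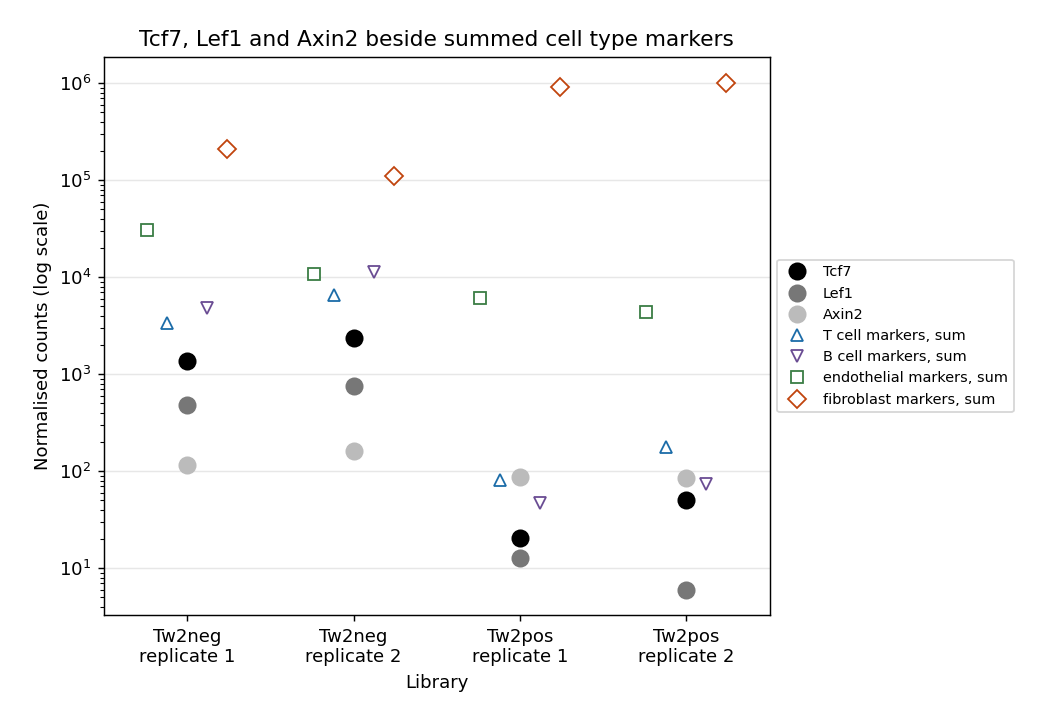
Normalised counts (y axis, log scale) of Tcf7, Lef1 and Axin2 and the summed counts of cell type marker lists in each Twist2 library (x axis), 1 point per library. Tcf7, Lef1 and the T and B cell sums are high in both Tw2neg libraries, highest in replicate 2, and low in both Tw2pos libraries; Tcf7 reaches 2347 and drops to 20.4.

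Levels can be compared between genes only per length, here as normalised counts per kilobase of annotated exon, from a GENCODE annotation of GRCm38 that may differ from the authors' own. On that scale the 10 inhibitors summed to 4427 and 3779 in Tw2pos and 1178 and 579 in Tw2neg. The 12 receptors summed to 1593 and 1412 against 809 and 444, and the 19 ligands to 571 and 588 against 255 and 169. The 5 nuclear factors and Axin2 went from 712 and 1085 in Tw2neg to 192 and 258 in Tw2pos, and the 7 R-spondins and Lgr receptors summed to 139.7 and 159.9 in Tw2pos. Per kilobase, inhibitor transcripts were more abundant than ligand transcripts in all 4 libraries, and in Tw2pos the receptors lay between them. The highest means in Tw2pos were those of Wif1 (1032 per kilobase), Sfrp2 (969.5), Sfrp4 (737) and Dkk3 (649); the ranges of Wif1 and Sfrp2 overlapped, as did those of Sfrp4 and Dkk3, so neither pair was separated. Wnt9a (172), Wnt11 (152) and Wnt5a (99.5) were the highest ligands in Tw2pos, the ranges of Wnt9a and Wnt11 overlapping, and Tcf7 (709.7) was the highest member in Tw2neg.

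The exons of 10 members (Axin2, Fzd5, Fzd6, Lef1, Rspo3, Sfrp2, Tcf7l1, Wnt11, Wnt5a and Wnt7b) overlap an exon of another annotated gene on the opposite strand. Whether the counting used strand is not known from the labels or files. Reads within the overlapping stretches therefore cannot be assigned to a member or to its partner. The length of these stretches was not measured.

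A further 60 genes of the Wnt pathway were listed from textbook knowledge, with earlier results of these data known. Of these, 56 were tested: 22 rose in Tw2pos, 7 fell and 27 did not pass, with a median log2 fold change of 0.51. Over all 14155 genes tested, 18.7% were higher and 20.0% lower, with a median of -0.04. Without Tw2pos replicate 1 or replicate 2 the count of risen genes was 13 each time, and that of fallen genes was 6 and 4. Scaling by library totals gave 13 higher and 12 lower. The largest rises were those of Nkd2, a Dishevelled-binding antagonist, with 895 and 853 normalised counts in Tw2pos against 150.4 and 71.2 in Tw2neg, a log2 change of 3.06 (SE 0.36, adjusted p = 0.00255), and Dact3. Dact3, of a family that also binds Dishevelled, had 507 and 527 normalised counts in Tw2pos against 127 and 75.2 in Tw2neg, a log2 change of 2.39 (SE 0.30, adjusted p = 0.00291). The largest falls were in Celsr3 and Celsr1, cadherins of planar cell polarity. Celsr3 had 2.55 and 12.1 normalised counts in Tw2pos against 88.6 and 60.0 in Tw2neg, a log2 change of -3.44 (SE 0.69, adjusted p = 0.0126). Celsr1 had 30.6 and 19.3 normalised counts in Tw2pos against 226 and 275 in Tw2neg, a log2 change of -3.31 (SE 0.34, adjusted p = 0.00174). All 4 calls held in every alternative tried.

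Ctnnb1, which encodes beta-catenin, had the highest mean of the list, with 8497 and 8247 normalised counts in Tw2pos against 7085 and 5174 in Tw2neg; it did not pass, at log2 0.47 (SE 0.26, adjusted p = 0.202). It passed as higher without Tw2neg replicate 1. Myc, a Wnt target in several tissues, had 6627 and 7842 normalised counts in Tw2pos against 3661 and 3809 in Tw2neg, a log2 change of 0.95 (SE 0.22, adjusted p = 0.0195); the call was lost without Tw2pos replicate 1 or 2, with quantile normalisation and with library totals. Wls, the carrier of Wnts to the cell surface, and Ror2, a Wnt5a receptor, were singled out after their values were seen. Wls had 2612 and 2719.7 normalised counts in Tw2pos against 1088 and 844 in Tw2neg, a log2 change of 1.48 (SE 0.20, adjusted p = 0.00364). Ror2 had 278 and 345 normalised counts in Tw2pos against 97.6 and 79.2 in Tw2neg, a log2 change of 1.81 (SE 0.25, adjusted p = 0.00405). Both passed in every alternative.

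**Figure D4:**
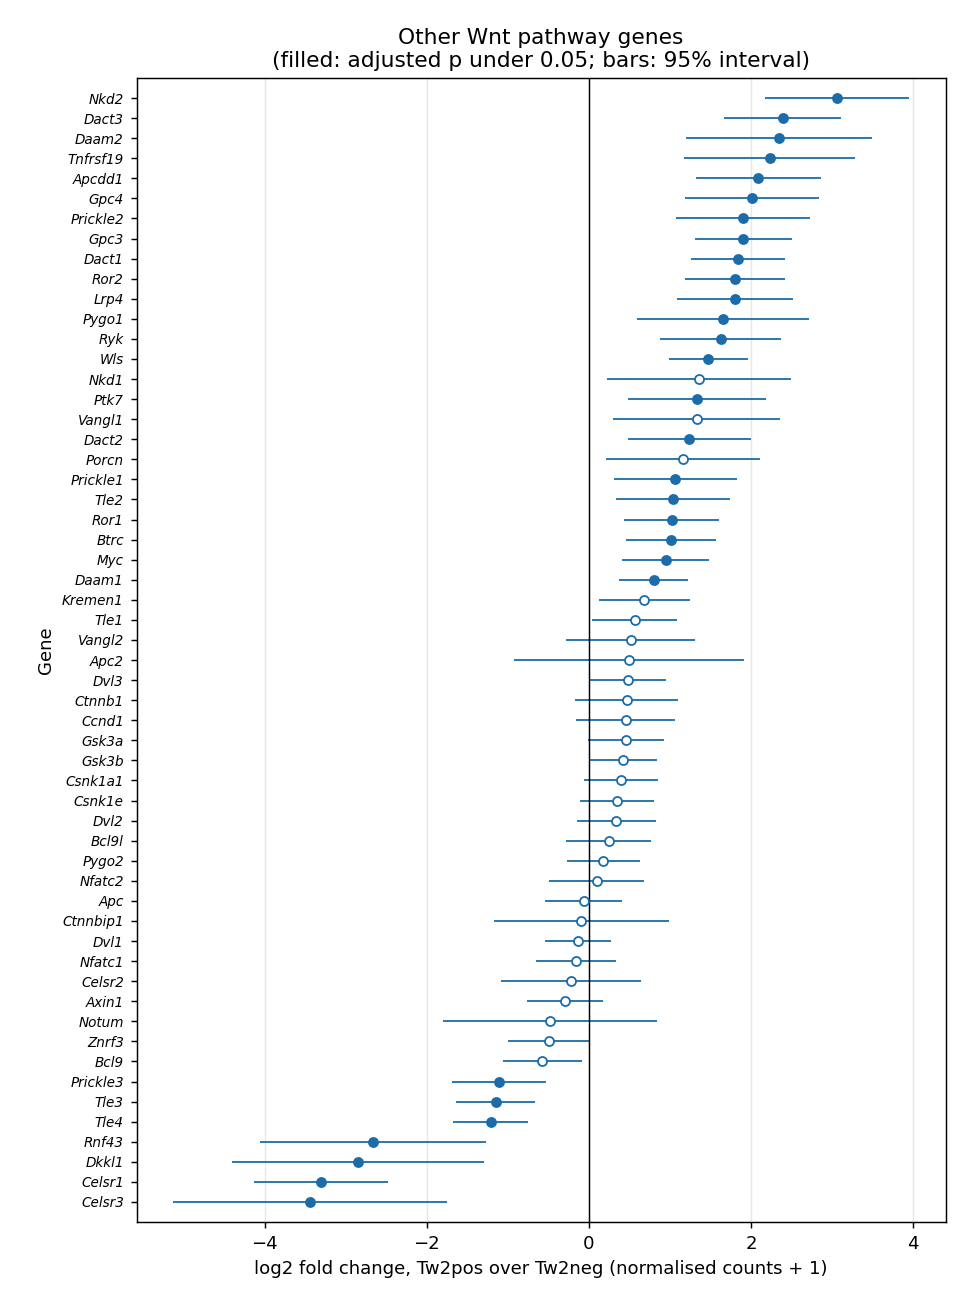
Log2 fold change of Tw2pos over Tw2neg (x axis, normalised counts + 1) for the 56 other Wnt pathway genes tested (y axis), with bars for the 95% interval and filled points for an adjusted p under 0.05. Filled points lie to the right for 22 genes, up to Nkd2 at 3.06, and to the left for 7, down to Celsr3 at -3.44.

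The second comparison set the labelled cells of both lines against each other, in CPM. The secreted inhibitors and Wnt5a that were high in Tw2pos were low in Pax7pos, with 6 to 46 recovered reads each, whereas 3 of the 6 receptors listed in CPM did not pass. Every gene listed in CPM reached 10 CPM in 3 or more libraries and differed 2-fold or more from Tw2neg in 1 or more of the authors' comparisons, so a member high only in Pax7pos could not enter it. Tw2pos and Pax7pos were among the groups set against Tw2neg, so entry depended on values tested here. Of the 32 members outside the table, 2 (Fzd5 and Lrp5) reached 10 CPM in 3 or more of the Twist2 libraries. The test was limma on log2(CPM + 1) over all 6 libraries; each Pax7 group is 1 library, which is assumed to vary like the Twist2 pairs. Of the 21 members, 12 were higher in Tw2pos, 1 was lower and 8 did not pass, beside 59.6% of 4790 genes called (33.9% higher and 25.7% lower). The median log2 difference was 2.09 over the members and 0.41 over all genes tested. Pax7pos lay below both Tw2pos libraries for 16 of the 21, and 7 were under 2 CPM there. The corresponding shares over all genes listed in CPM were not counted, so neither count is read as particular to the Wnt genes. Without Tw2pos replicate 1 or replicate 2, 11 members were called higher.

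All 6 inhibitors that rose over Tw2neg were also higher in Tw2pos than in Pax7pos. Wif1 had 238 and 167 CPM in Tw2pos and 1.36 CPM in Pax7pos, a difference of log2 6.41 (SE 0.47, adjusted p = 5.22e-05). Dkk3 had 152 and 200.2 CPM in Tw2pos and 1.36 CPM in Pax7pos, at log2 6.22 (SE 0.36, adjusted p = 2.52e-05). Sfrp2 had 201 and 136 CPM in Tw2pos and 1.57 CPM in Pax7pos, at log2 6.02 (SE 0.60, adjusted p = 0.000202). These Pax7pos values rest on 13, 13 and 15 reads. Dkk2, Sfrp1 and Sfrp4 stood at 0.731, 0.836 and 4.81 CPM in Pax7pos and at no less than 96.2 CPM in either Tw2pos library, with log2 differences of 5.92, 5.82 and 5.43. Sfrp5, the remaining inhibitor of the table, had 12.05 and 7.99 CPM in Tw2pos and 10.7 CPM in Pax7pos and did not pass, at log2 -0.11 (SE 0.55, adjusted p = 0.872).

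All 3 ligands of the table were higher in Tw2pos. Wnt5a had 71.1 and 54.8 CPM in Tw2pos and 0.627 CPM in Pax7pos, a difference of log2 5.28 (SE 0.45, adjusted p = 9.83e-05). Wnt9a had 47.6 and 45.0 CPM in Tw2pos and 4.18 CPM in Pax7pos, at log2 3.19 (SE 0.41, adjusted p = 0.000619). Wnt11 had 45.4 and 56.4 CPM in Tw2pos and 8.46 CPM in Pax7pos, at log2 2.45 (SE 0.34, adjusted p = 0.000965). Pax7pos was below both Tw2pos libraries for each of them, and the calls held in every alternative.

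The receptors were divided: Fzd2 had 30.1 and 25.8 CPM in Tw2pos and 2.09 CPM in Pax7pos, at log2 3.22 (SE 0.52, adjusted p = 0.00180). Fzd7 had 103 and 91.5 CPM in Tw2pos and 21.9 CPM in Pax7pos, at log2 2.09 (SE 0.38, adjusted p = 0.00297). Fzd1 had 112 and 104 CPM in Tw2pos and 36.6 CPM in Pax7pos, at log2 1.54 (SE 0.41, adjusted p = 0.0137), a call lost without either Tw2pos replicate (adjusted p = 0.0800 and 0.0550) and with quantile normalisation. The other receptors did not pass. Lrp6 had 319 and 296 CPM in Tw2pos and 188 CPM in Pax7pos, at log2 0.71 with a 95% interval of 0.798 to each side. Fzd8 had 32.5 and 24.8 CPM in Tw2pos and 32.3 CPM in Pax7pos, at log2 -0.18 with 1.05 to each side, and Fzd4 had 68.7 and 45.5 CPM in Tw2pos and 37.9 CPM in Pax7pos, at log2 0.55 with 1.27 to each side. Each interval includes 0, but each is wide enough that large differences are not excluded either.

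Lgr4 had 40.2 and 36.5 CPM in Tw2pos and 58.8 CPM in Pax7pos, at log2 -0.61 (SE 0.42, adjusted p = 0.243); it passed as lower in Tw2pos under DESeq2 (log2 -1.05) and without either Tw2neg replicate. Tcf7 was the 1 member called lower, with 1.65 and 4.09 CPM in Tw2pos and 10.2 CPM in Pax7pos, at log2 -1.61 (SE 0.50, adjusted p = 0.0238); the call was lost without Tw2pos replicate 1 (adjusted p = 0.168) and with a pseudocount of 10. The T cell marker sum was 4.07 CPM in Pax7pos and 6.59 and 14.2 CPM in Tw2pos. Lef1 was low in both, with 1.03 and 0.487 CPM in Tw2pos and 1.15 CPM in Pax7pos. Tcf7l1 had 41.7 and 54.9 CPM in Tw2pos and 34.8 CPM in Pax7pos and Tcf7l2 had 24.9 and 34.9 CPM in Tw2pos and 16.9 CPM in Pax7pos, at log2 differences of 0.45 and 0.77 that did not pass; Tcf7l2 and Lrp6 passed as higher without either Tw2neg replicate. The fibroblast marker sum, which moves with the inhibitors here too, was 74035 and 81887 CPM in Tw2pos and 1484 CPM in Pax7pos. The tendon sum moved the same way, with 31402 and 27893 CPM in Tw2pos and 210 CPM in Pax7pos. The myofibre sum, over 2 genes listed in CPM, moved the other way, with 26.8 and 44.7 CPM in Tw2pos and 643 CPM in Pax7pos. The part of these cell types in the results was not tested.

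Of the other Wnt pathway genes, 31 were tested in CPM: 13 were higher in Tw2pos than in Pax7pos, 9 were lower and 9 did not pass. Over all 4790 genes tested, 33.9% were higher and 25.7% lower. The median log2 difference was 0.28 over the 31 genes and 0.41 over all genes tested, so the list as a whole did not stand out. Nkd2 had 72.3 and 68.9 CPM in Tw2pos and 0.731 CPM in Pax7pos, at log2 5.37 (SE 0.48, adjusted p = 0.000115). Daam2, a formin of the Wnt pathway, had 142 and 116 CPM in Tw2pos and 4.81 CPM in Pax7pos, at log2 4.48 (SE 0.56, adjusted p = 0.000540). Both calls held in every alternative that tested them. Ror1, a receptor tyrosine kinase for Wnt5a, was lower, with 27.5 and 29.8 CPM in Tw2pos and 114 CPM in Pax7pos, at log2 -1.96 (SE 0.36, adjusted p = 0.00315). Nfatc2, a calcium-regulated transcription factor, had 82.8 and 73.9 CPM in Tw2pos and 276 CPM in Pax7pos, at log2 -1.80 (SE 0.35, adjusted p = 0.00389). These calls, too, held in every alternative that tested them, and Pax7pos was above both Tw2pos libraries for each gene. The pathway genes of highest mean were Myc, with 535 and 634 CPM in Tw2pos and 1440.1 CPM in Pax7pos at log2 -1.30 (SE 0.35, adjusted p = 0.0142), and the kinase gene Csnk1a1, with 235 and 267 CPM in Tw2pos and 536 CPM in Pax7pos at log2 -1.09 (SE 0.32, adjusted p = 0.0197). Without Tw2pos replicate 1 or replicate 2 neither passed (limma, Myc adjusted p = 0.128 and 0.0620, Csnk1a1 0.175 and 0.105, the latter gene also with quantile normalisation at 0.0593), and the pathway genes called numbered 9 higher and 3 lower, or 8 and 3.

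**Figure D5:**
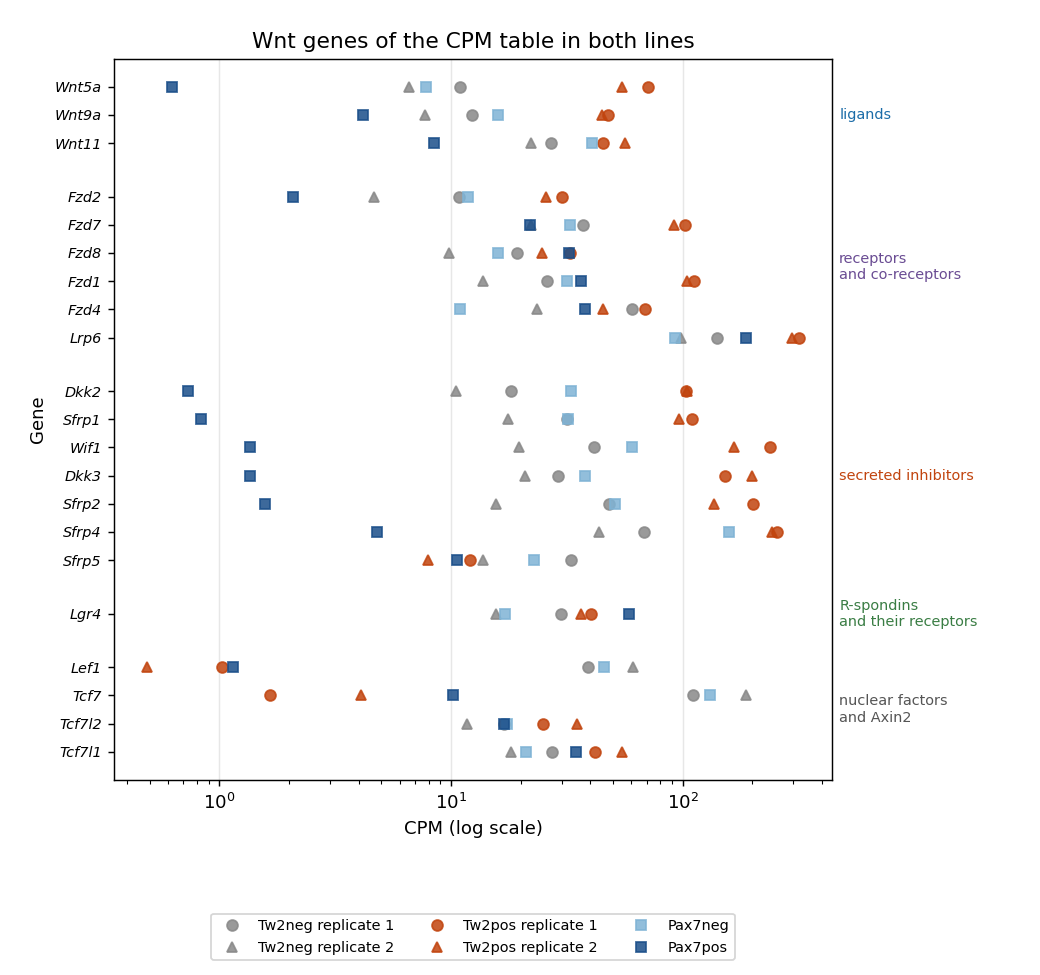
CPM (x axis, log scale) of the 21 members in the CPM table (y axis, ordered by role) in each of the 6 libraries, 1 point per library. Pax7pos lies left of both Tw2pos points for 16 members, from 0.627 CPM for Wnt5a upwards. The share of all genes with that order was not counted. Lgr4 is at 58.8 CPM in Pax7pos against 40.2 and 36.5 CPM in Tw2pos.

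Within the Pax7 line, 1 labelled and 1 unlabelled library were available, so the difference has no replicate check and no test; a log2 difference of CPM + 10 of at least 1 was used to name genes. By that rule 2 members were higher in Pax7pos, Lgr4 at 1.34 and Fzd4 at 1.20, while 9 were lower and 10 lay between. Over the 4939 genes listed in CPM, 18.3% were higher and 33.0% lower (51.3% in either direction). Lgr4 had 58.8 CPM in Pax7pos and 17.1 CPM in Pax7neg, and Fzd4 had 37.9 and 10.9 CPM. The 9 lower members were Sfrp4 (-3.51), Tcf7 (-2.80), Wif1 (-2.63), Sfrp2 (-2.40), Lef1 (-2.33), Dkk3 (-2.08), Dkk2 (-2.01), Sfrp1 (-1.95) and Wnt11 (-1.45). Sfrp4 had the largest gap, with 4.81 CPM in Pax7pos and 159 CPM in Pax7neg, and Tcf7 had 10.2 and 131 CPM. With a pseudocount of 1 the counts were 3 higher (adding Lrp6) and 13 lower (adding Wnt5a, Fzd2, Wnt9a and Sfrp5), and with a pseudocount of 50 they were 0 and 3. The median log2 difference was -0.85 over the 21 members and -0.43 over the table.

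The non-fluorescent cells of both lines were compared next. Pax7neg against Tw2neg was 1 of the authors' comparisons used for entry, so entry depended on values tested here. Pax7neg lay between the Tw2neg libraries for 8 of the 21 members, above both for 11 and below both for 2. Shares over all genes listed in CPM were not counted for this split or for the unadjusted p-values below. Neither is therefore read as particular to the Wnt genes. None of the 21 passed limma, beside 0.230% of 4790 genes called (0.146% higher and 0.0835% lower); at an unadjusted p under 0.05, 1 member was higher in Tw2neg (Fzd4) and 2 were lower (Sfrp4 and Dkk2). Fzd4 had 60.4 and 23.6 CPM in Tw2neg and 10.9 CPM in Pax7neg, a difference of log2 1.70 (SE 0.55, adjusted p = 0.19995). Sfrp4 had 68.0 and 43.4 CPM in Tw2neg and 159 CPM in Pax7neg, at log2 -1.53 (SE 0.36, adjusted p = 0.1404). Dkk2 had 18.2 and 10.5 CPM against 33.1 CPM, at log2 -1.20 (SE 0.41, adjusted p = 0.218). The count rested on the Tw2neg pair: without replicate 1, 8 members were called lower in Tw2neg, and without replicate 2, 2 were called lower and 1 higher; with the replicate block Sfrp4 was called lower and Fzd4 higher. The endothelial marker sum was 2442 and 871 CPM in Tw2neg and 819 CPM in Pax7neg, and the fibroblast sum was 16858 and 8870.4 against 32920.4 CPM; their part in these values was not tested.

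The last comparison asked whether the step from unlabelled to labelled cells differed between the lines, as the Twist2 difference minus the Pax7 difference in the 6-library fit. Of the 21 members, 12 had a higher Twist2 step, none a lower one, and 9 did not pass, beside 36.2% of 4790 genes called (23.4% higher and 12.8% lower). At an unadjusted p under 0.05, 1 member (Tcf7) was lower and 12 were higher, and the share over all genes at that level was not counted. The median was 2.28 log2 units over the members and 0.37 over all genes tested. Dkk2 illustrates the contrast: it went from 18.2 and 10.5 CPM in Tw2neg to 103 and 105 CPM in Tw2pos, and from 33.1 CPM in Pax7neg to 0.731 CPM in Pax7pos. The difference of its steps was log2 7.12 (SE 0.57, adjusted p = 0.000154). For Fzd8 the difference was log2 0.01 with a 95% interval of 1.49 to each side. Lgr4 was at -0.93 with 1.38 to each side, and Fzd4 at -1.16 with 1.79. Without Tw2pos replicate 1 the count was 10 and without Tw2pos replicate 2 it was 11, the calls of Fzd1 (both) and Fzd7 (replicate 1) being those lost. Members called lower numbered 1 without Tw2neg replicate 1 (Tcf7) and 2 without Tw2neg replicate 2 (Lgr4 and Fzd4); Tcf7 was also called lower with the replicate block and with totals over the table, and Tcf7l2 was called higher without Tw2neg replicate 1. This comparison shares its libraries with those above and adds no independent samples. Its genes had to differ 2-fold or more from Tw2neg in 1 or more of the authors' comparisons. Tw2neg is a term of the contrast, so entry depended on values that were tested. Each negative fraction is depleted of the cells labelled in its own line but not of those labelled in the other. The steps therefore start from different mixtures, whose part in the differences was not tested.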

How the data were processed

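Gene-level RNA-seq values were used for 6 libraries of sorted mouse muscle cells in 4 groups. The submitters' processing notes name TopHat2 2.0.0, DESeq2 1.6.3 and GRCm38/mm10; a read counter, its annotation and a strand setting are not named in the sources used here. The authors deposited normalised counts (a signal scale, counts divided by a size factor) for the Twist2 libraries, and a table of CPM with log2 fold changes; the deposited log2 columns equal the log2 ratio of CPM + 1, and the deposited Twist2 CPM columns are means of 2 libraries. Both count-based units were checked against the values, taking the smallest nonzero value of each library as 1 read. On that basis 100% of the Twist2 and Pax7pos values were whole reads within a tolerance of 0.01, and 20.2% of those of Pax7neg. The smallest Pax7neg value can stand for more than 1 read. The 20.2% therefore does not show that Pax7neg lacks whole reads. Twist2 CPM per library were rebuilt from the recovered reads and matched the deposited means.

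Groups came from sample titles and genotype. limma 3.58.1 (R 4.3.3; trend, no covariate) was fitted to log2(normalised count + 1) of the 4 Twist2 libraries and to log2(CPM + 1) of all 6, keeping genes that averaged 10 or more, with Benjamini-Hochberg adjustment over all genes tested and a threshold of 0.05. Residual degrees of freedom were 2 in each main fit. Fits without 1 library or with the replicate block had fewer. A call lost without a library therefore need not mean that the value itself changed. edgeR 4.0.16 and DESeq2 1.42.0 were run on recovered reads as alternatives, beside other pseudocounts, filters, scalings, a replicate block and leaving out each Twist2 library. The fits were tested on simulated data. Members are named with their values if their mean is at least 10, with full statistics for the 3 largest passing changes per role and for calls that change with the processing; of other pathway genes, the 2 largest passing changes in each direction and the 2 highest means are named. Intervals for 0 reads cover counting error only. The members and lists were chosen with earlier results of these data known.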

Additional observations from a re-analysis of the deposited data

Results flagged for a closer look

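For 12 members the step from unlabelled to labelled cells differed between the Twist2 and Pax7 lines in the contrast of the steps (limma, 6 libraries, adjusted over 4790 genes). Genes entered this test only if they differed 2-fold or more from Tw2neg in 1 or more of the authors' comparisons. Tw2neg is a term of the contrast, so entry depended on values that were tested. Among the inhibitors the difference, in log2 units, was 7.461 for Wif1, 7.121 for Dkk2, 6.959 for Sfrp4, 6.88 for Sfrp2, 6.828 for Dkk3 and 6.237 for Sfrp1, with adjusted p-values of 0.000112 to 0.000932. For the ligands it was 5.172 for Wnt5a, 3.838 for Wnt9a and 3.149 for Wnt11, with adjusted p-values of 0.000911, 0.00218 and 0.00242. For the receptors it was 3.873 for Fzd2, 2.277 for Fzd7 and 2.255 for Fzd1, with adjusted p-values of 0.00637, 0.0151 and 0.0202. In all 12 both Tw2pos libraries were above both Tw2neg libraries; Pax7pos was below Pax7neg in 11 and above it in Fzd1 (36.6 against 31.8 CPM). The call for Fzd7 was lost without Tw2pos replicate 1 (adjusted p = 0.0722), and that for Fzd1 without Tw2pos replicate 1 (0.0732) or replicate 2 (0.0563); both were lost with quantile normalisation. Each Pax7 group is 1 library, so animal, sort and line cannot be told apart. The negative fractions also differ by design, since each is depleted of the cells labelled in its own line only. The fibroblast marker sum was 32920 CPM in Pax7neg and 16858 and 8870 CPM in Tw2neg. Its part in the size of these differences was not tested.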

How the results depend on the processing

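For Tw2pos against Tw2neg, 12 of the 19 members called higher and both called lower kept their call in every alternative, and no call changed direction; over all members and alternatives 486 values kept their side of the threshold, 23 lost it and 30 gained it. On the recovered reads edgeR with TMM called 5342 genes and DESeq2 5296, and the 6-library CPM fit 2975, having fewer genes to test. Leaving out 1 library gave 2586 to 7430 genes called, 12 to 27 members higher and 2 to 5 lower, and 13 to 33 other pathway genes higher and 4 to 7 lower. Scaling by library totals moved the median of all genes from -0.04 to -0.50 (log2) and the split from 2645 higher and 2825 lower to 1601 and 5289, with 15 members higher and 4 lower and 13 other pathway genes higher and 12 lower; quantile normalisation moved it to 0.10. The other pathway genes called lower numbered 3 in the 6-library fit and 4 at a mean of at least 50, having fewer genes to test. For Tw2pos against Pax7pos, genes called numbered 1501 at a mean of at least 50, 1847 with quantile normalisation (split 852 to 995 against 1624 to 1229, median -0.16 against 0.41; totals gave 1364 to 1502) and 1615 to 3705 without 1 library; other pathway genes higher numbered 3 at a mean of at least 50, 7 with quantile normalisation and 8 to 14 without 1 library, and lower 5 with quantile normalisation and 3 to 13 without 1 library; members higher numbered 6 at a mean of at least 50 and 11 to 14 without 1 library, and members lower 2 under DESeq2, 0 with a pseudocount of 10 and 0 to 2 without 1 library. edgeR called 2968 genes and DESeq2 2904. For Tw2neg against Pax7neg, genes called numbered 18 at a mean of at least 50, 3 with no filter, 17 and 1 with pseudocounts of 0.5 and 10, 1 with quantile normalisation, 68 with totals over the table and 47 to 999 without 1 library, where members higher numbered 0 to 1 and lower 0 to 8; edgeR and DESeq2 were not run, because whole reads were not recovered for Pax7neg. For the difference between lines, genes called numbered 979 at a mean of at least 50, 958 with quantile normalisation and 933 to 3065 without 1 library; members higher numbered 6 at a mean of at least 50 and 10 to 13 without 1 library, and lower 1 with totals (split 835 to 1314 against 1121 to 615) and 0 to 2 without 1 library. Whole reads of Pax7neg were sought only with its smallest value taken as 1 read, so count-based tests were not shown to be impossible. Pax7pos against Pax7neg gave 0 members higher and 3 lower with a pseudocount of 50. Unless given above, the cause was not tested.

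The Twist2 replicates share only a number; same-numbered deviations correlated at 0.263 across 14155 genes, with only 2 pairs. With the replicate block, 6627 genes, 23 members higher and 3 lower were called for Tw2pos against Tw2neg, 3029 genes for Tw2pos against Pax7pos, 303 genes with 1 member higher and 1 lower for Tw2neg against Pax7neg, and 2050 genes with 12 members higher and 1 lower for the difference between lines. Depth left 12 members under a mean of 10 and 7 of 21 under 2 CPM in Pax7pos, and each Pax7 group is 1 library.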
